A study of Mus musculus with 13 samples.

Results

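The genes of ketone body synthesis, use and transport were read on arrays of whole hippocampus from Kmt2d+/βGeo mice and wild-type controls. The group was set by name, as Bdh1, Bdh2, Oxct1, Acat1, Aacs, Slc16a1, Slc16a7 and Bsg. Its members were every probe set that the platform annotation gives to exactly 1 of these genes. Each gene had 1 such probe set, so the group held 8 of the 35556 probe sets on the array.

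Kmt2d encodes a histone H3 lysine 4 methyltransferase, and mice heterozygous for its βGeo gene trap allele serve as a model of Kabuki syndrome. The 13 mice were C57BL/6J, 1 to 2 months old and fed standard chow freely, each taken to be on an array of its own. In experiment 1 the mice had no injections, and 4 were wild-type and 3 heterozygous. In experiment 2 the mice received 3 injections of saline vehicle a day, and 3 were wild-type and 3 heterozygous. By the labels 12 mice were female, and the sex of the remaining one, the third wild-type replicate of experiment 1, is unknown. The series is titled for a ketogenic diet, but none of the groups analysed here received one, so the values describe ketone body genes on standard chow.

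Ketone bodies are small acids, mainly acetoacetate and beta-hydroxybutyrate, that the liver makes from fatty acids during fasting or on a diet poor in carbohydrate. They reach the brain through monocarboxylate transporters of the vessel wall, glia and neurons. In mitochondria beta-hydroxybutyrate is oxidised to acetoacetate, which is tied to coenzyme A and split into acetyl-CoA, the fuel of the tricarboxylic acid cycle. A cytosolic branch turns acetoacetate into building blocks for sterols and fatty acids.

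Values are log2 intensities, so a difference of 1 is a 2-fold difference, and differences between groups carry the standard error (SE) of limma. A result passed when its p-value, adjusted by the Benjamini-Hochberg method over all 35556 probe sets, was below 0.05. Levels of different probe sets are not set against each other, because probes differ in how well they bind.

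Of the genes of hippocampal principal neurons, 9 of 9 measured lay above the array median on every array. So did 7 of 8 measured striatal markers, all but Isl1, so this rule alone does not identify the tissue. Of the 2 Kmt2d probe sets, 1 was lower in all heterozygous mice of each experiment (7.17 to 7.47 against 7.87 to 7.90 in experiment 1, and 7.88 to 8.18 against 8.32 to 8.76 in experiment 2), while the other was slightly higher in heterozygous mice of experiment 1 (9.84 to 9.95 against 9.82 to 9.83) and overlapped in experiment 2. Equal values recurred among the wild-type arrays of experiment 1 for both probe sets (7.8743 and 9.8153), so their narrow ranges there understate the spread. The exons that either probe set covers are unknown here, so the genotype labels could not be fully checked with them. Wild-type replicate 2 of experiment 1 stood apart, with 8 measured striatal markers on average 2.17 log2 units above the mean of its experiment against -0.51 to -0.28 on the other arrays. In this whole tissue, fewer cells of a type and less RNA per cell cannot be told apart.

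Upstream sequence is shown for 3 members because they stand for the patterns found between the experiments: Slc16a1 had the largest difference of the group, Oxct1 was lower with it, and Aacs went the other way. RefSeq (GRCm38.p6) entries were matched for 5 of the 8 members (Slc16a1, Bdh2, Aacs, Oxct1 and Bdh1). Printed are the 250 bases before the gene start, 5′ to 3′ on the plus strand, at chr3:104638414-104638663, chr15:4026178-4026427 and chr5:125475623-125475872.
Slc16a1: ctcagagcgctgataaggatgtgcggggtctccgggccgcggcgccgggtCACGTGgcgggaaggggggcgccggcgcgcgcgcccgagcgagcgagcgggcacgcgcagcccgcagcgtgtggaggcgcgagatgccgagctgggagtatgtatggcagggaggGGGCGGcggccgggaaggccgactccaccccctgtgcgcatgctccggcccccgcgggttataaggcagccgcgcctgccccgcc
Oxct1: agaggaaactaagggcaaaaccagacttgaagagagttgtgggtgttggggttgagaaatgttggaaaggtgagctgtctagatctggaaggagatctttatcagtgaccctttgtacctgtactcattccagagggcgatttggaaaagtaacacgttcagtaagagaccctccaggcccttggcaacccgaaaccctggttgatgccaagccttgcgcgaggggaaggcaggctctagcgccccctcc
Aacs: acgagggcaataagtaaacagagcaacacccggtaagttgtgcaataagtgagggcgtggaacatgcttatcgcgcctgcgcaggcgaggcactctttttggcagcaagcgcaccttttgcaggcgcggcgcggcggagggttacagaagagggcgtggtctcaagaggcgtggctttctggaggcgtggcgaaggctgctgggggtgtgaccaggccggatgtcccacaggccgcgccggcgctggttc
Capitals mark matches, on either strand, to an E-box (CACGTG), a GC box (GGGCGG), the core of a cAMP response element (TGACGT) or the element of oestrogen-related receptors (AAGGTCA), none of which overlapped another here. The Slc16a1 stretch held 1 E-box and 1 GC box, motifs found in 6.02% and 32.7% of the 32851 RefSeq promoter entries searched in the same 250-base window. The stretches of Oxct1 and Aacs held none of the 4 motifs, which are found in 6.47% (cAMP core) and 4.08% (receptor element) of all entries for the other two. Slc16a1 was the richest of the 3 in G and C, at 76.4%, with 37 CG dinucleotides, against 62.4% and 22 for Aacs and 52% and 6 for Oxct1. The median of all entries was 52.4% and 6. A match describes letters only and shows no binding.

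The first comparison was that of the genotypes. None of the 8 members passed over both experiments, within experiment 1 or within experiment 2. Over both experiments the 8 differences ran from -0.03 (Oxct1) to 0.13 (Acat1), with a median of 0.02 beside 0.003 over all probe sets. Background was as bare, with 0% of all probe sets passing in each of the 3 comparisons and 4.54% (1613 probe sets) at an unadjusted limma p under 0.05 over both experiments. At that unadjusted level there was no member over both experiments and none in experiment 1 (2.74% of all probe sets), and 1 in experiment 2, Slc16a1 (9.1% of all).

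Bdh1, the mitochondrial dehydrogenase that interconverts beta-hydroxybutyrate and acetoacetate, read 9.49, 9.14, 9.53 and 9.49 in the wild-type mice of experiment 1 and 9.57, 9.40 and 9.40 in the heterozygous mice. In experiment 2 it read 8.81, 9.03 and 9.13 in wild-type and 9.03, 8.79 and 8.83 in heterozygous mice. The genotypes overlapped in both experiments. The difference over both was -0.03 ± 0.08, with a 95% interval from -0.20 to 0.15 (limma adjusted p = 0.992).

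Oxct1 encodes the transferase that commits acetoacetate to oxidation. It had the smallest spread between mice of the 8 genes, with a pooled within-group SD of 0.08 beside a median of 0.15 over all probe sets. Its levels in experiment 1 were 10.32, 10.21, 10.29 and 10.31 in wild-type and 10.28, 10.28 and 10.32 in heterozygous mice. In experiment 2 they were 9.72, 9.999 and 9.85 in wild-type and 9.72, 9.80 and 9.79 in heterozygous mice. The genotypes overlapped in both, and the 95% interval of the difference over both experiments ran from -0.15 to 0.08 around -0.03 ± 0.05.

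Acat1, the thiolase that splits acetoacetyl-CoA into acetyl-CoA, read 10.13, 9.84, 10.20 and 10.02 in wild-type and 10.18, 10.08 and 9.93 in heterozygous mice of experiment 1. In experiment 2 wild-type mice read 9.68, 9.53 and 9.66, and heterozygous mice 9.66, 9.94 and 10.03. Heterozygous replicates 2 and 3 of experiment 2 thus lay above every wild-type mouse there, and replicate 1 lay among them. The difference in experiment 2 was 0.25 ± 0.12 (limma adjusted p = 0.556; exact permutation p = 0.2), and it was 0.02 ± 0.11 in experiment 1.

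Bdh2 and Aacs work in the cytosol, the first as a short-chain dehydrogenase and the second as the synthetase that feeds acetoacetate into lipid synthesis. Bdh2 read 6.78, 6.503, 7.03 and 6.85 in wild-type and 6.79, 6.79 and 6.77 in heterozygous mice of experiment 1. In experiment 2 it read 6.69, 6.72 and 6.82 in wild-type and 6.67, 6.79 and 7.04 in heterozygous mice. The genotypes overlapped in both experiments, and 2 heterozygous arrays of experiment 1 held an equal value, as can follow from the way the authors' method combines probes, so their SD of 0.01 understates the spread. Aacs read 8.89, 8.58, 8.72 and 8.78 against 8.84, 8.84 and 8.77 in experiment 1, wild-type first, and 9.17, 9.30 and 9.14 against 9.28, 9.29 and 8.79 in experiment 2. Heterozygous replicates 1 and 2 of experiment 1 held an equal value for Aacs too, so the spread of that group is also understated. Heterozygous replicate 3 of experiment 2 had by far the lowest Aacs level of its experiment, and without it the genotype difference there moved from -0.09 to 0.08. This array was the lowest of its group for 41.8% of all probe sets and the highest for 31.4%. Over both experiments the differences were 0.04 ± 0.08 for Bdh2 and 0.002 ± 0.09 for Aacs (limma adjusted p = 0.989 and 0.999).

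Slc16a1 encodes the monocarboxylate transporter MCT1 of brain endothelium and glia. In experiment 1 it read 8.68, 8.37, 8.56 and 8.69 in wild-type and 8.73, 8.36 and 8.29 in heterozygous mice, with overlap. In experiment 2 it read 7.28, 7.47 and 7.13 in wild-type and 7.49, 7.55 and 8.03 in heterozygous mice. All 3 heterozygous mice of experiment 2 lay above all 3 wild-type mice, the only such separation by genotype among the 8 members in either experiment. Over all probe sets 4.65% separated in that direction in experiment 2, and 9.56% there and 6.12% in experiment 1 in either direction, so 1 of 8 is near the background. The difference there was 0.39 ± 0.16, 1.31-fold, and did not pass (limma adjusted p = 0.511; exact permutation p = 0.1, the smallest that 3 against 3 mice allow). In experiment 1 it was -0.12 ± 0.15, and the difference between the 2 effects, 0.51 ± 0.22, did not pass either (limma adjusted p = 0.85, range over its alternatives 0.41 to 0.992). At the unadjusted level 1 of 8 members, Slc16a1, and 5.67% of all probe sets differed between the experiments in their genotype effect.

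Without heterozygous replicate 3, at 8.03, the Slc16a1 difference of experiment 2 was 0.22 in place of 0.39 (limma adjusted p = 0.82), and the remaining heterozygous mice still lay above all wild-type mice. That array also had the highest choroid plexus level of its experiment, 0.75 log2 units above the experiment's mean over 9 of 10 listed markers, and wild-type replicate 3, which had the lowest Slc16a1 level, was lowest at -1.06. Wild-type replicates 1 and 2 had choroid plexus levels of -0.14 and 0.52, with Slc16a1 at 7.28 and 7.47. Heterozygous replicates 1 and 2 had choroid plexus levels of 0.20 and -0.27, with Slc16a1 at 7.49 and 7.55. By group the choroid plexus mean ran from 6.84 to 8.42 in wild-type and from 7.63 to 8.65 in heterozygous mice of experiment 2. Of its defining markers Ttr was above the array median on all 13 arrays and Steap1 on 0. The 9 measured endothelial markers ran from 8.13 to 8.22 and from 8.11 to 8.31, and the 9 measured oligodendrocyte markers from 9.58 to 10.39 and from 10.06 to 10.34. Their part in the result was not tested.

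Slc16a7 encodes MCT2, the high-affinity monocarboxylate transporter of neurons. It read 9.59, 9.33, 9.46 and 9.51 in wild-type and 9.61, 9.55 and 9.58 in heterozygous mice of experiment 1, and 8.78, 8.93 and 8.53 against 8.62, 8.97 and 8.86 in experiment 2. The genotypes overlapped in both, with a difference over both of 0.09 ± 0.08 and a 95% interval from -0.08 to 0.25 (limma adjusted p = 0.989). Bsg encodes basigin, the membrane protein that brings MCT1 to the cell surface. It read 11.49, 11.38, 11.54 and 11.57 against 11.47, 11.51 and 11.41 in experiment 1, and 11.01, 11.22 and 11.0005 against 10.995, 11.05 and 11.16 in experiment 2, again with overlap. Its difference over both experiments was -0.02 ± 0.06, with a 95% interval from -0.14 to 0.10.

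**Figure D1:**
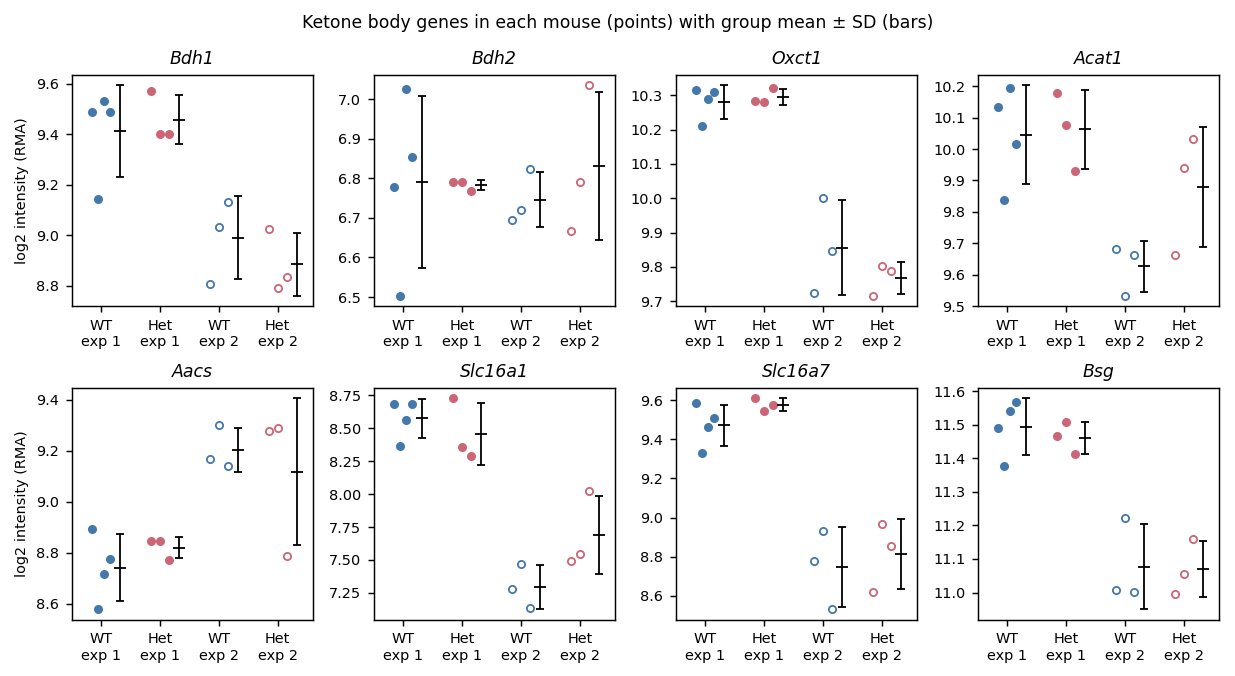
Log2 intensity of the 8 genes in each mouse, wild-type (WT, blue) and Kmt2d+/βGeo (Het, red), filled for experiment 1 and open for experiment 2, with the mean and SD of each group (n = 4, 3, 3 and 3) beside the points. Axes do not start at 0. Experiment 2 lies below experiment 1 without overlap for Bdh1, Oxct1, Slc16a1, Slc16a7 and Bsg, while the genotypes separate only for Slc16a1 in experiment 2.

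The array of wild-type replicate 2 of experiment 1 had the lowest level of the 4 wild-type mice of that experiment for 8 of 8 members. Over all probe sets it was lowest of the 4 in 30.1%. This is the array with the high striatal markers. Relative to the experiment's mean it was also the lowest array of experiment 1 for markers of hippocampal neurons (-0.40), endothelium (-0.20), astrocytes (-0.17) and neurons (-0.03). Choroid plexus markers lay at -0.64, microglia at 0.03 and blood at 0.01, and oligodendrocyte markers were highest on it, at 0.24. The part of tissue or cell types in the result was not tested. Leaving this array out changed the sign of the experiment 1 difference of Bdh1 (from 0.04 to -0.05), Oxct1 (from 0.01 to -0.009) and Acat1 (from 0.02 to -0.05). No member passed with or without it. In both experiments together the largest 95% interval was that of Slc16a1, from -0.15 to 0.39, and the other 7 genes had bounds between -0.20 and 0.31.

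**Figure D2:**
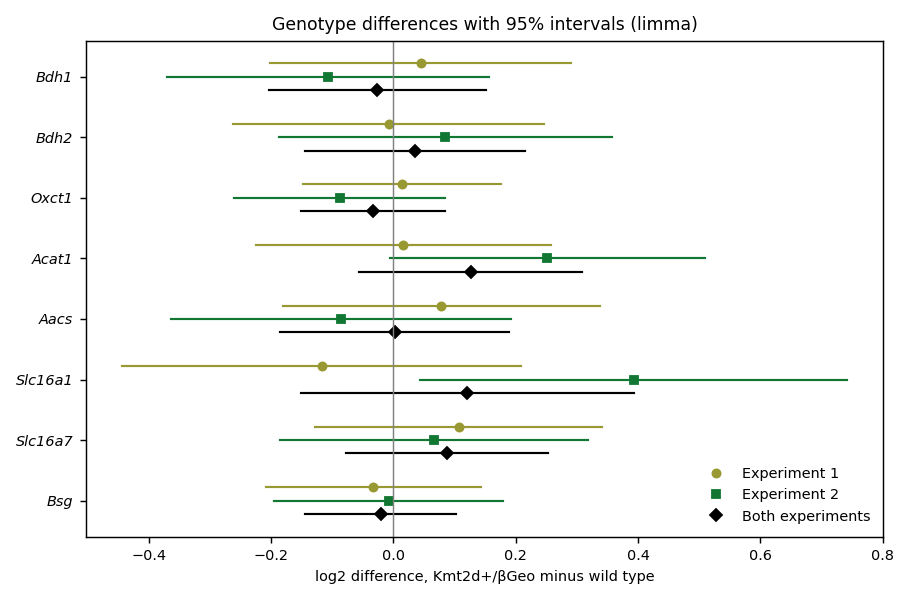
Differences between Kmt2d+/βGeo and wild-type mice in log2 units for the 8 genes, within experiment 1 (circles), within experiment 2 (squares) and over both (diamonds). Lines are 95% intervals from limma, not adjusted for the number of genes; each line crosses 0 except that of Slc16a1 in experiment 2, which runs from 0.04 to 0.74.

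The comparison of experiment 2 with experiment 1 describes saline injections and anything else that differed between the experiments, which cannot be told apart. Levels of 6 of the 8 genes were lower in experiment 2: Bdh1, Oxct1 and Acat1 of the mitochondrial route, both transporters and Bsg. Aacs of the cytosolic route was higher, and Bdh2 differed by -0.002 ± 0.08 and did not pass. Over all probe sets 73.4% passed, 27.5% as lower and 45.9% as higher, so that 7 of 8 passing is not far from the background, while the members' median difference was -0.44 beside 0.15 over all probe sets.

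Slc16a1 had the largest difference, -1.04 ± 0.13, a 2.06-fold lower level (limma adjusted p = 6.12e-06). It was -1.28 ± 0.15 in wild-type and -0.77 ± 0.16 in heterozygous mice. Slc16a7 followed with -0.74 ± 0.08, 1.68-fold lower, and with -0.73 ± 0.11 and -0.77 ± 0.12 in the 2 genotypes. Bdh1 was lower by -0.49 ± 0.08, Oxct1 by -0.47 ± 0.05 and Bsg by -0.41 ± 0.06 (limma adjusted p = 0.000111, 3.62e-06 and 2.44e-05). For these 5 genes every mouse of experiment 2 lay below every mouse of experiment 1, as did 20.8% of all probe sets. The exact permutation p, with experiment regrouped within genotype, was 0.00143 for Oxct1, Slc16a1, Slc16a7 and Bsg, the smallest that the 700 regroupings allow, and 0.00286 for Bdh1.

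Means of 9 marker lists were read beside these genes. Among single probe sets, 20.8% of all lay lower in experiment 2 without overlap. The mean of the 9 measured endothelial markers was 8.52 to 8.81 in experiment 1 and 8.11 to 8.31 in experiment 2, that of 10 astrocyte markers 10.53 to 10.77 and 9.94 to 10.20, and that of 8 neuronal markers 11.69 to 11.74 and 11.32 to 11.47, each without overlap. The 9 measured oligodendrocyte markers, at 10.18 to 10.82 and 9.58 to 10.39, and the 7 of microglia, at 8.31 to 8.43 and 8.43 to 8.56, overlapped. So did the 9 measured markers of hippocampal principal neurons, at 9.76 to 10.38 and 9.58 to 9.83. The choroid plexus markers, at 8.15 to 9.67 and 6.84 to 8.65, overlapped too. Striatal markers, at 8.27 to 10.95 and 8.16 to 8.48, and those of blood, at 6.70 to 6.94 and 6.84 to 7.39, also overlapped. Their part in the result was not tested.

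Acat1 differed less, by -0.31 ± 0.08 (limma adjusted p = 0.00464), and overlapped between the experiments. Its wild-type mice differed by -0.42 ± 0.11 and its heterozygous mice by -0.18 ± 0.12, of which the second did not pass (limma adjusted p = 0.198). Aacs was higher by 0.39 ± 0.09, 1.31-fold (limma adjusted p = 0.00127), with 0.46 ± 0.12 in wild-type and 0.30 ± 0.13 in heterozygous mice (the second at limma adjusted p = 0.0625). Only heterozygous replicate 3 of experiment 2, at 8.79, lay within the range of experiment 1. In wild-type mice alone the same 7 genes passed, 6 lower and 1 higher (64.2% of all probe sets, 24.6% lower and 39.6% higher), and in heterozygous mice alone 5 did, all lower (57.9% of all, 23.3% lower and 34.6% higher). The wild-type and heterozygous values use the arrays of the pooled comparison and are no further test, and no member's difference between the genotypes passed.

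The difference between the experiments varied with the signal, though not in one direction throughout. Over the 13 arrays the median difference was 0.09 for probe sets with a mean of 3 to 4 log2 units, 0.24 at 4 to 5, 0.36 at 5 to 6 and at 6 to 7, 0.13 at 7 to 8, -0.19 at 8 to 9, -0.35 at 9 to 10, -0.31 at 10 to 11, -0.24 at 11 to 12, -0.22 at 12 to 13 and 0.03 at 13 to 14. Bdh1, Acat1 and Slc16a7 belong to the range of 9 to 10, in which 59.4% of probe sets passed as lower. Against the median of their own range Bdh1 (-0.49), Oxct1 (-0.47 at a range median of -0.31), Acat1 (-0.31) and Bsg (-0.41 at -0.24) lay near the middle of the distribution, with 40.7% to 52.1% of the range's probe sets below them. Slc16a1 lay further down, with 15.4% of the probe sets at 8 to 9 below it and a range median of -0.19, and so did Bdh2, with 22.7% below it at a range median of 0.36, and Slc16a7, with 30.2% below it. Aacs, of the same range as Slc16a1, had 78.4% below it.

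**Figure D3:**
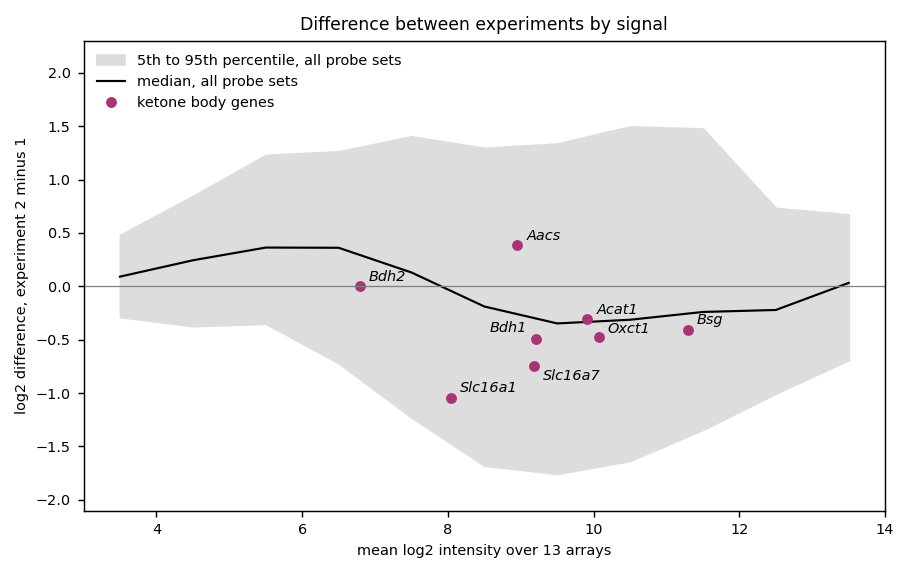
Difference between experiment 2 and experiment 1 (log2 units, vertical) against the mean log2 intensity over 13 arrays (horizontal). The line is the median and the band the 5th to 95th percentile of all probe sets in steps of 1 log2 unit, and points are the 8 ketone body genes, of which Slc16a1 at -1.04 lies furthest below the line and Aacs at 0.39 furthest above it.

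The scaling of the arrays moved these values. Array medians lay at 6.74 to 6.90 (experiment 1) and 7.04 to 7.08 (experiment 2). The median difference over all probe sets was 0.15 as deposited, 0.0002 after the arrays were quantile-normalized together and -0.10 after centring each array on its median. The split of all calls moved with it, from 16316 higher and 9770 lower to 10725 and 11067 with quantile normalization and to 8860 and 14695 with centring. The lower levels of Bdh1, Oxct1, Slc16a1, Slc16a7 and Bsg passed under all 3 scalings, from -0.49, -0.21 and -0.74 for Bdh1 to -1.04, -1.03 and -1.29 for Slc16a1, in the order deposited, quantile and centred. Oxct1 was at -0.19, Slc16a7 at -0.47 and Bsg at -0.28 with quantile normalization. Acat1 was at -0.01 with it and did not pass (limma adjusted p = 0.916), and Aacs was at 0.14 with centring and did not pass (limma adjusted p = 0.201). Bdh2 passed as lower with quantile normalization (-0.27) and with centring (-0.25). Set against the median of all probe sets as deposited, the differences were -1.19 for Slc16a1, -0.89 for Slc16a7, -0.64 for Bdh1, -0.62 for Oxct1, -0.55 for Bsg, -0.46 for Acat1, -0.15 for Bdh2 and 0.24 for Aacs.

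**Figure D4:**
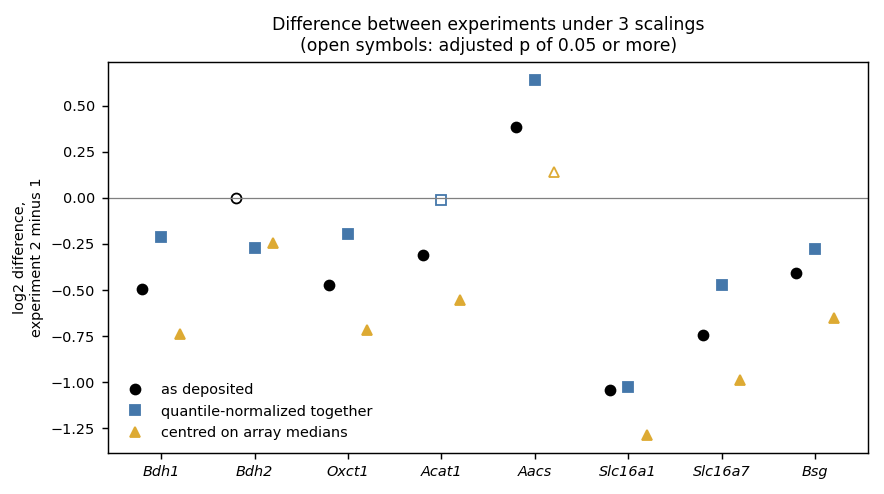
Difference between experiment 2 and experiment 1 in log2 units for the 8 genes with the values as deposited (circles), quantile-normalized together (squares) and centred on each array's median (triangles). Filled symbols have a limma adjusted p below 0.05; Bdh1, Oxct1, Slc16a1, Slc16a7 and Bsg are filled and below 0 for all 3 scalings.

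Further genes of the pathway came from 3 lists. Of the list of other ketone and coenzyme A enzymes 4 of 8 were measured, and 0 of these 4 passed by genotype over both experiments. Hmgcs1, the cytosolic synthase at the entry to sterol synthesis, differed by 0.18 ± 0.06 over both experiments (limma adjusted p = 0.989). Its levels were 10.41 to 10.72 in wild-type and 10.66 to 10.77 in heterozygous mice of experiment 1, and 9.32 to 9.35 against 9.55 to 9.66, without overlap (4.65% of all probe sets separated in that direction), in experiment 2. Acat3, a cytosolic thiolase with near copies in the genome that probes may share, differed by -0.25 ± 0.09 over both experiments (limma adjusted p = 0.989). It read 7.52 to 7.83 in wild-type and 7.16 to 7.25 in heterozygous mice of experiment 1, without overlap (2.46% of all probe sets separated in that direction), and 6.75 to 7.07 against 6.81 to 7.02, with overlap, in experiment 2. Heterozygous replicates 2 and 3 of experiment 1 held an equal value for Acat3, so that group's range understates the spread. Hmgcll1, a lyase that makes acetoacetate outside mitochondria, differed by 0.14 ± 0.11. Between the experiments 3 of the 4 enzymes were lower, Hmgcs1 by -1.21 ± 0.06, Hmgcll1 by -1.04 ± 0.11 and Acat3 by -0.51 ± 0.09, under each of the 3 scalings. Over all probe sets 27.5% were lower as deposited, 31.1% with quantile normalization and 41.3% with centring, and 45.9%, 30.2% and 24.9% were higher.

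Of 9 other carriers of monocarboxylates and their partners 8 were measured, and 0 of 8 passed by genotype. Mpc1, a subunit of the mitochondrial pyruvate carrier, was 11.14 to 11.35 in wild-type and 11.08 to 11.10 in heterozygous mice of experiment 1 and 10.80 to 11.07 against 10.43 to 10.78 in experiment 2. All heterozygous mice thus lay below all wild-type mice of their experiment, as for 0.127% of all probe sets, with a difference of -0.19 ± 0.07 over both (limma adjusted p = 0.989). That share, 45 probe sets, counts the lower direction alone. Mpc1 was named for the lowest genotype p of its list, so its separation is a description and no test. Slc16a4 differed by -0.16 ± 0.14 and Slc5a8 by 0.12 ± 0.06. Emb, which encodes embigin, the partner protein of MCT2, differed by -0.52 ± 0.29 in experiment 1 and 0.53 ± 0.31 in experiment 2, and neither passed. The choroid plexus means of experiment 1 ran from 8.21 to 9.67 in wild-type and 8.15 to 8.50 in heterozygous mice, and their part in the Emb values was not tested. Between the experiments 2 carriers were higher and 1 lower as deposited, Slc16a8 by 0.61 ± 0.08, Slc5a12 by 0.32 ± 0.08 and Mpc1 by -0.38 ± 0.07, while with quantile normalization the count was 1 higher and 5 lower and with centring 1 and 6, beside 45.9% higher and 27.5% lower of all probe sets as deposited, 30.2% and 31.1% with quantile normalization and 24.9% and 41.3% with centring. Slc16a8 and Mpc1 kept their calls under each of the 3 scalings and Slc5a12, named here after its values were seen, did not. Emb differed by -0.54 (limma adjusted p = 0.0609) and passed as lower only with centring, at -0.79.

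The 13 receptors of ketone bodies and genes that govern their synthesis had 15 probe sets, and 0 of 15 passed by genotype. The values of lowest p were those of Cpt1a, the carnitine transferase that admits fatty acids to mitochondria (-0.17 ± 0.08), Cpt2, its inner-membrane partner (-0.15 ± 0.09), and Hadha, of the trifunctional protein of fatty acid oxidation (-0.10 ± 0.06), each with a limma adjusted p of 0.989. Between the experiments 8 probe sets were lower and 4 higher, 6 and 3 with quantile normalization and 9 and 3 with centring. All probe sets stood at 27.5% lower and 45.9% higher as deposited, 31.1% and 30.2% with quantile normalization and 41.3% and 24.9% with centring. Acadm, a dehydrogenase of medium-chain fatty acids, differed by -0.91 ± 0.08, Hadha by -0.82 ± 0.06 and the probe set of higher signal of Ppargc1a, a coactivator of mitochondrial genes, by -0.74 ± 0.06, all 3 lower under each scaling. The other Ppargc1a probe set differed by -0.16 ± 0.08 as deposited and by 0.12 with quantile normalization, and passed with neither. With centring it passed as lower, at -0.40.

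The genes whose levels followed a member most closely were sought by the Pearson correlation of deviations from the mean of each experiment over the 13 arrays. They are the highest of 19938 genes and are given as a description with no test. Syap1 followed Bsg (r = 0.964), Timm17a followed Aacs (0.963), Selenos followed Acat1 (0.961), Immt followed Slc16a1 (0.934), Denn2b followed Bdh2 (0.928), Sel1l followed Slc16a7 (0.923), Hdac6 followed Bdh1 (0.914) and Phf19 followed Oxct1 (0.914). For Oxct1 the correlation with Phf19 was 0.466 within experiment 1 and 0.976 within experiment 2, while for the other 7 pairs both values were 0.87 or higher. The second in rank were Dtd1 for Bdh1, Qars for Bdh2, Hcfc1r1 for Oxct1, Ppp2r3c for Acat1, Akr1a1 for Aacs, Eif2ak2 for Slc16a1, Cd200 for Slc16a7 and Fam199x for Bsg, with r from 0.911 to 0.947. The points share the arrays and their scaling.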

How the data were processed

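Hippocampal RNA of 13 mice was read on arrays of the Affymetrix Mouse Gene 1.0 ST design, taken as 1 mouse per array. The deposited values are log2 intensities; the submitters' processing notes name RMA and oligo. This method removes background, brings arrays to 1 distribution and joins probes by median polish, which can leave arrays with equal values. For the oligo version, the build and whether the experiments shared 1 run: not given in the sources used here. Equal values also spanned the experiments, in 2 of the 3 tied pairs of arrays for Bdh2. Gene names came from GEO's platform annotation (21789 of 35556 with 1 symbol, 1621 with several, 12146 not listed). All 35556 probe sets were fitted with limma 3.58.1 (R 4.3.3; statmod 1.5.0), and the scripts were tested on simulated data. The model of genotype and experiment gave the effects over both experiments, and a model of the 4 groups gave those within each. Tests were two-sided. Exact permutation moved genotype within experiments, or experiment within genotypes (700 regroupings each), with smallest p of 0.00143 over both experiments, 0.0286 for experiment 1 and 0.1 for experiment 2. No probe set was filtered out. Nothing says how tissue was pooled or split, so p-values measure only the spread between these arrays, taken as mice. The number of arrays sets the precision. Alternatives were 1 probe set per gene, the dimmest 30% left out, quantile normalization, median centring, an intensity trend together with robust moderation of the variances, array weights, a replicate block, 3 arrays left out, single experiments and single arrays left out. The members and lists were chosen with earlier results of these data known. Named were all members, up to 3 genes per other list by lowest p and 3 by largest difference between experiments, and the closest-following genes.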

Additional observations from a re-analysis of the deposited data

Results flagged for a closer look

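In the wild-type mice of experiment 1, the only group of 4, replicate 2 stood apart from the others for Bdh1. Its level was 9.14 against 9.49, 9.49 and 9.53, and its gap to the nearest mouse was 0.886 of the group's range, above the critical value of Dixon's test. Chance sets apart about 1 in 20 such groups, and 8 genes were examined. The same array was lowest of the 4 for all 8 members and had the highest striatal markers. Without it the genotype difference of Bdh1 in experiment 1 was -0.05.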

How the results depend on the processing

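No member passed by genotype, and 7 passed between the experiments, under every alternative that gave a value, though Bdh2 joined and Acat1 or Aacs left with another scaling. Slc16a1, Slc16a7, Bdh1, Oxct1 and Bsg stayed lower in experiment 2 in all of them. Over all probe sets, counts by genotype over both experiments were 1 with array weights, in experiment 1 they were 4 with 1 probe set per gene, 12 with array weights and 1 with the arrays of that experiment alone, and in experiment 2 they were 2 with the dimmest 30% left out, 3 with quantile normalization, 2 with an intensity trend together with robust moderation and from 0 to 19 when single arrays were left out, 19 without heterozygous replicate 1. With 1 probe set per gene 15385 passed between the experiments, as fewer were tested. Genotype differences changed sign under some alternatives, and not only those near 0. In the main fit Slc16a1 was at 0.12 over both experiments, Aacs at -0.09 in experiment 2 and the difference between the effects at -0.16 for Aacs. With quantile normalization Aacs was at -0.01268 over both experiments, Bdh2 at 0.009145 in experiment 1 and Bsg at 0.0181 in experiment 2, and with centring Bdh2 was at 0.006492 in experiment 1. With array weights Bdh2 was at -0.02756 and Slc16a1 at -0.0607 over both, Bdh1 at -0.02462, Oxct1 at -0.007336 and Acat1 at -0.01179 in experiment 1, and the difference between the effects at 0.06547 for Slc16a7. The 3 arrays left out together were wild-type replicates 2 and 3 of experiment 1 and heterozygous replicate 3 of experiment 2. Without them the values were -0.02543 for Bdh2 and -0.00135 for Slc16a1 over both experiments. In experiment 1 they were -0.03087 for Bdh1, -0.0173 for Oxct1, -0.01338 for Acat1 and -0.01498 for Aacs. In experiment 2 they were -0.01728 for Bdh2 and 0.07978 for Aacs, and between the effects 0.09477 for Aacs and 0.01382 for Slc16a7. With single arrays left out the ranges over both experiments were -0.07608 to 0.01104 (Bdh1), -0.01157 to 0.07792 (Bdh2), -0.05492 to 0.002025 (Oxct1), -0.03072 to 0.07916 (Aacs) and -0.04075 to 0.007842 (Bsg). In experiment 1 they were -0.04573 to 0.08447 (Bdh1), -0.1034 to 0.07097 (Bdh2), -0.009433 to 0.02623 (Oxct1) and -0.05327 to 0.08225 (Acat1). In experiment 2 they were -0.01728 to 0.167 (Bdh2), -0.1718 to 0.07978 (Aacs), -0.04125 to 0.1638 (Slc16a7) and -0.05257 to 0.06545 (Bsg). Between the effects they were -0.009717 to 0.1883 (Bdh2), -0.2505 to 0.001067 (Aacs), -0.1477 to 0.05734 (Slc16a7) and -0.02008 to 0.09793 (Bsg). For the difference between the experiments Bdh2 ran from -0.04877 to 0.04072. Apart from fewer probe sets or arrays, the cause was not tested. Correlations of deviations ran from -0.2504 to 0.1722 for mice with equal replicate numbers and from -0.3619 to 0.4641 for unequal numbers. With so few mice they cannot tell whether the numbers pair the mice. With the number as a replicate block no probe set passed by genotype, Bdh2 in experiment 1 was at 0.01367 and Slc16a1 in experiment 2 at 0.3927. The block could give no difference between the experiments, which lie in separate blocks.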
